A study of Homo sapiens with 16 samples.

Results

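The comparison of 12 h of TGF-beta with 0 h in A549 cells is described here. The levels compared come from 4 of the 16 libraries of the series, chosen by their time. They are those of 12 h and of 0 h that the labels number as replicate 1 and replicate 2. The p-values also rest on the other times, because the spread was estimated over all 16 libraries. A549 is an established human lung adenocarcinoma line of alveolar epithelial type. The series profiled its RNA along an epithelial-to-mesenchymal transition (EMT) that TGF-beta set off, at 0, 6, 12, 24, 36, 48, 72 and 96 h, with 2 libraries at each time. The 12 h group is A549 cells after 12 h of TGF-beta, and the 0 h group is A549 cells at the start of the course. The dose and the isoform of TGF-beta are not stated in the labels. The single cell line is what both groups share. Untreated cultures of 12 h were not analysed here, so TGF-beta and time in culture cannot be told apart. Whether the replicates are separate cultures is not in the labels, so the p-values cover just the spread between libraries, which may be technical.

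TGF-beta binds a pair of serine/threonine kinase receptors, TGFBR2 and TGFBR1, which phosphorylate SMAD2 and SMAD3. With SMAD4 these enter the nucleus and raise transcription of target genes, among them the inhibitors SMAD7 and SKIL that feed back on the pathway. In epithelial cells the signal also raises matrix proteins, integrins and actin-bundling proteins and lowers E-cadherin through repressors such as SNAI1, the set of changes known as EMT. A549 cells are widely used for it, and they are known for high basal activity of NRF2, the transcription factor of oxidant defence.

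Levels are TPM (a share of all transcripts that takes gene length into account), rescaled to the usual TPM total after 6 abundant small non-coding RNAs were dropped. These RNAs took 42.5% and 55.4% of the deposited TPM at 12 h, against 51.8% and 51.8% at 0 h. Mitochondrially encoded transcripts took 2.34% and 1.35% of the rescaled TPM at 12 h, against 2.08% and 2.07% at 0 h, and none of the 13 tested was called. TPM keep no read totals, so the depth is unknown. Among 13 listed markers of A549 and lung epithelium, ALDH1A1 and KRT18 had the highest means over the 4 libraries. The keratin KRT18 measured 3422 and 4772 TPM at 12 h, against 4244 and 5667 TPM at 0 h. ALDH1A1, an aldehyde dehydrogenase abundant in this line, measured 7311 and 8779 TPM at 12 h, against 8903 and 8071 TPM at 0 h. Others were less steady. The keratin KRT7 measured 4577 and 4765 TPM at 12 h, against 2401 and 2235 TPM at 0 h. ALDH3A1 measured 350 and 815 TPM at 12 h, against 774 and 1672 TPM at 0 h. EPCAM was low, at or below 9.37 TPM. ALDH1A1, KRT7 and ALDH3A1 were named after their values were seen. Markers of differentiated alveolar cells were near 0: the surfactant gene SFTPC was at 0.122 and 0 TPM at 12 h, against 0.394 and 0.228 TPM at 0 h. In bulk RNA, fewer cells of a type and less RNA per cell cannot be told apart.

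A limma fit over all 16 libraries, which share 1 estimate of the spread, was paired by replicate number. Of 21216 genes tested, 478 were higher (2.25%) and 210 were lower (0.99%) at 12 h than at 0 h, at an adjusted p below 0.05. Genes so called are written as having risen or fallen. Of the 478 genes that rose, 401 did so by at least 2-fold, 130 by at least 4-fold and 34 by at least 8-fold. Of the 210 that fell, 169 fell by at least 2-fold, 39 by at least 4-fold and 3 by at least 8-fold. Both 12 h libraries lay outside the range of the 0 h libraries in 473 of the genes that rose and in 208 of those that fell, while over all genes tested both 12 h libraries lay above both 0 h libraries in 16% and below them in 22.3%. Protein-coding genes made up 429 of the genes that rose (89.8%) and 183 of those that fell (87.1%), against 64.0% of the genes tested. The median log2 difference of the genes that rose was 1.60 in replicate 1 and 1.48 in replicate 2. Among the genes that fell it was -1.29 in replicate 1 and -1.47 in replicate 2.

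**Figure D1:**
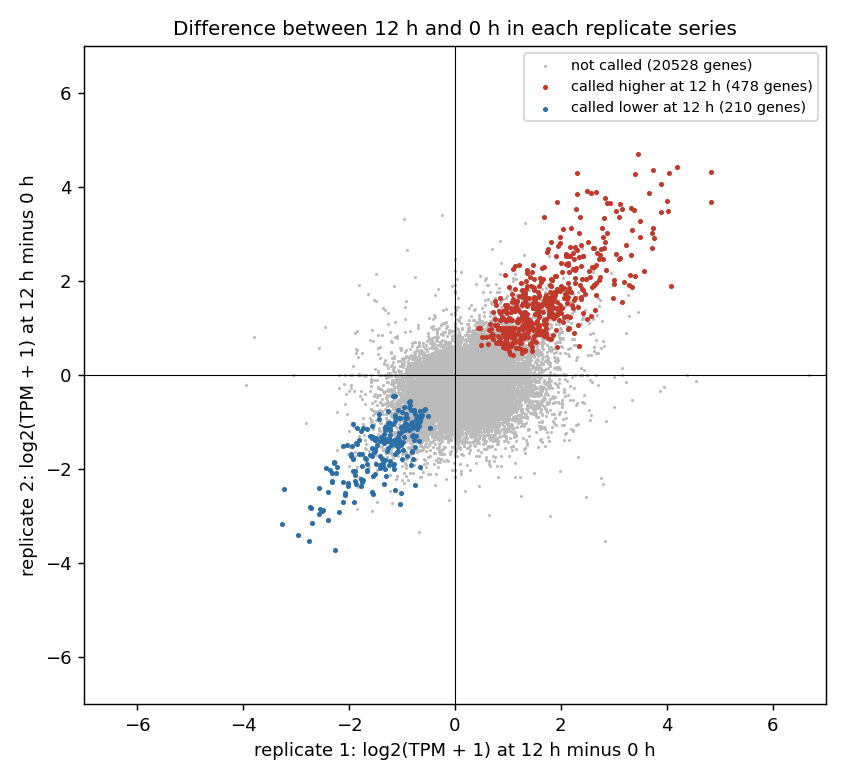
Log2(TPM + 1) at 12 h minus 0 h in replicate 1 (x axis) and in replicate 2 (y axis) for the 21216 genes tested, one point per gene. The 478 genes called higher (red) lie in the upper right and the 210 called lower (blue) in the lower left, and grey genes were not called.

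The pairing decides much of this count. Without the replicate block, 121 genes were higher (0.57%) and 42 were lower (0.198%). A limma fit to the 4 libraries alone kept the pairing, but estimated the spread with 1 residual degree of freedom. That fit called none in either direction (lowest adjusted p 0.12). In it 1291 genes were higher and 974 lower at an unadjusted p below 0.05. Replicate 1 was above replicate 2 at both times in 345 of the 478 genes that rose, in 13 of the 210 that fell and in 6676 of the 21216 tested. The opposite order, or no difference, at both times was found in 32 of the genes that rose, 139 of those that fell and 4730 of those tested. The counts were 71 higher and 41 lower without 12 h replicate 1, and 199 and 35 without 12 h replicate 2. They were 118 and 39 without 0 h replicate 1, and 101 and 22 without 0 h replicate 2.

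The 15 largest rises had log2 fold changes of 3.44 to 4.57. ANGPTL4, a secreted inhibitor of lipoprotein lipase, measured 264 and 153 TPM at 12 h, against 8.30 and 6.76 TPM at 0 h (log2 fold change 4.57 with an SE of 0.79, adjusted p = 0.00867; 0.110 without the block). IGFL1, a member of the insulin-like growth factor-like family, measured 49.51 and 66.49 TPM at 12 h, against 1.76 and 2.16 TPM at 0 h (log2 fold change 4.30 with an SE of 0.63, adjusted p = 0.00447; 0.0700 without the block). In neither gene did the libraries of the 2 times come near each other, though a lack of overlap was a condition for choosing these 15 genes. TNFAIP6, a secreted hyaluronan-binding protein, measured 36.2 and 29.4 TPM at 12 h, against 1.25 and 0.539 TPM at 0 h. ADAM19, a membrane metalloprotease, had 184 and 70.8 TPM at 12 h, against 11.46 and 3.28 TPM at 0 h, and its adjusted p of 6.99e-05 was the lowest of the comparison, shared with CGB8. NPTX1, a secreted pentraxin first known from neurons, and WNT5B, a ligand of non-canonical Wnt signalling, belonged to the same group: NPTX1 had 236 and 68.7 TPM at 12 h, against 13.6 and 5.20 TPM at 0 h. WNT5B had 50.2 and 22.9 TPM at 12 h, against 2.45 and 1.16 TPM at 0 h. PDGFB, the B chain of platelet-derived growth factor, measured 80.49 and 49.8 TPM at 12 h, against 5.06 and 4.79 TPM at 0 h. The long intergenic non-coding RNA CTD-2066L21.3 measured 42.3 and 18.49 TPM at 12 h, against 3.11 and 0 TPM at 0 h. Of these 15 genes, 9 were called whichever of the 4 libraries was left out and 8 without the replicate block, where WNT5B, PDGFB and CTD-2066L21.3 missed the threshold (adjusted p = 0.0597, 0.0762 and 0.0843).

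The 15 largest falls had log2 fold changes of -2.49 to -3.21. PDK4, the kinase that switches off pyruvate dehydrogenase, measured 3.20 and 8.45 TPM at 12 h, against 39.4 and 83.6 TPM at 0 h (log2 fold change -3.21 with an SE of 0.74, adjusted p = 0.0358; 0.499 without the block). GDF15, a TGF-beta superfamily cytokine that cell stress induces, measured 9.38 and 8.02 TPM at 12 h, against 80.03 and 94.9 TPM at 0 h (log2 fold change -3.19 with an SE of 0.39, adjusted p = 0.00178). NR0B1, an orphan nuclear receptor, measured 3.65 and 6.39 TPM at 12 h, against 26.7 and 38.1 TPM at 0 h (log2 fold change -2.49 with an SE of 0.24, adjusted p = 0.000772). All 3 were lower in both 12 h libraries than in either 0 h library, which the choice of these 15 genes required. SDPR, the caveola protein also called cavin-2, measured 2.14 and 2.49 TPM at 12 h, against 17.4 and 24.3 TPM at 0 h. CYP4F3, a cytochrome P450 that hydroxylates leukotriene B4, measured 1.90 and 4.66 TPM at 12 h, against 16.1 and 42.8 TPM at 0 h. TM4SF20, a membrane protein of the tetraspan family, measured 3.34 and 6.32 TPM at 12 h, against 27.98 and 50.4 TPM at 0 h. GATSL1 was low at both times, with 0 and 1.23 TPM at 12 h, against 8.34 and 10.9 TPM at 0 h; it has a close copy, GATSL2, that was not called, and how the reads were shared is uncertain. Of these 15 genes, 7 were called whichever library was left out and 6 without the block, where the adjusted p was 0.174 for CYP4F3, 0.380 for TM4SF20 and 0.0827 for GATSL1.

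**Figure D2:**
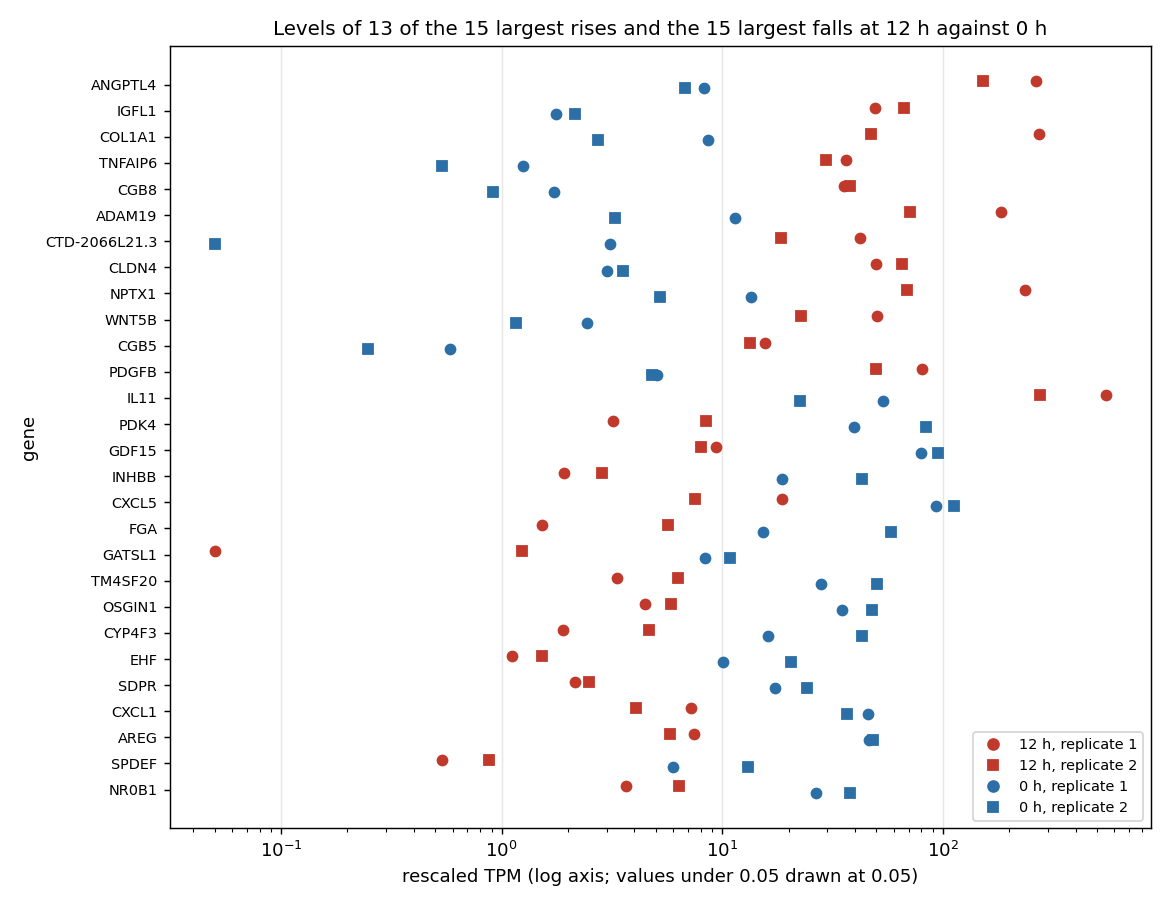
Rescaled TPM (log x axis) of 13 of the 15 genes with the largest rises and the 15 with the largest falls (rows), with 12 h in red and 0 h in blue, circles for replicate 1 and squares for replicate 2. In each row the red and the blue points lie apart, which the choice of these genes required. ANGPTL4 lies at 264 and 153 TPM at 12 h, against 8.30 and 6.76 TPM at 0 h.

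Of 30 listed target and feedback genes of SMAD signalling, 19 rose (63.3%) and none fell, against 2.25% and 0.99% of all genes tested. Of the 30, 28 had a log2 fold change above 0, and their median was 1.72, against -0.03 over all genes tested. The list was drawn up with earlier results of these data known, so its share is a description. Their summed level was 13558 and 10437 TPM at 12 h, against 3085 and 1674 TPM at 0 h. TGFBI, a secreted matrix adhesion protein, gained the most TPM of all called genes, at 4916 and 4004 TPM at 12 h, against 1476 and 648 TPM at 0 h (log2 fold change 2.18 with an SE of 0.36, adjusted p = 0.00763). PMEPA1, an inhibitor of SMAD activation, measured 603 and 394 TPM at 12 h, against 152 and 50.3 TPM at 0 h. The related inhibitor LDLRAD4, which was not on the list and like PMEPA1 was chosen after its values were seen, measured 48.99 and 43.2 TPM at 12 h, against 6.16 and 4.75 TPM at 0 h (log2 fold change 2.87, adjusted p = 0.00967). SMAD7, the inhibitory SMAD, measured 66.03 and 49.97 TPM at 12 h, against 33.997 and 17.1 TPM at 0 h (log2 fold change 1.21, adjusted p = 0.0319; 0.412 without the block). SKIL, the other feedback repressor, measured 428 and 349 TPM at 12 h, against 128 and 96.47 TPM at 0 h and was not called (log2 fold change 1.78 with an SE of 0.45, adjusted p = 0.0570), though its libraries did not overlap. CTGF, a matricellular growth factor, measured 415 and 153 TPM at 12 h, against 58.3 and 14.2 TPM at 0 h (adjusted p = 0.0138; 0.305 without the block). JUNB, an AP-1 subunit, measured 417 and 312 TPM at 12 h, against 97.1 and 51.4 TPM at 0 h (adjusted p = 0.00867; 0.0815 without the block). Without the block 5 of the 30 rose.

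Within the pathway itself, 4 of 15 ligand, receptor, SMAD and latent-binding genes rose and none fell, with a list median of 0.22. TGFBR1, the type I receptor, measured 263 and 149 TPM at 12 h, against 64.4 and 41.2 TPM at 0 h (log2 fold change 1.92 with an SE of 0.32, adjusted p = 0.00776; 0.155 without the block). TGFBR2, the type II receptor, lay the other way, at 46.1 and 31.8 TPM at 12 h, against 77.9 and 94.3 TPM at 0 h, and missed the threshold (log2 fold change -1.14 with an SE of 0.36, adjusted p = 0.128). SMAD3 measured 119 and 97.4 TPM at 12 h, against 122 and 162 TPM at 0 h and was not called (adjusted p = 0.554). The ligand TGFB1 and the latent-complex proteins LTBP2 and LTBP3, which tether it to matrix, were the other genes that rose. TGFB1 measured 97.1 and 28.7 TPM at 12 h, against 24.7 and 18.6 TPM at 0 h; it was chosen after its values were seen, its 12 h libraries lay far apart, and without the block its adjusted p was 0.525. LTBP2 measured 63.3 and 24.8 TPM at 12 h, against 16.9 and 8.27 TPM at 0 h, and LTBP3 201 and 58.98 TPM at 12 h, against 41.7 and 31.1 TPM at 0 h. None of the 4 rises was called without the block, with an adjusted p of 0.325 for LTBP2 and 0.364 for LTBP3.

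Among 23 BMP and activin ligands, antagonists and ID genes, 4 rose and 2 fell (median 0.46). None of the 4 rises was called without the block, and both falls were. The members that rose included secreted antagonists: NOG, which traps BMPs, measured 6.53 and 4.15 TPM at 12 h, against 0.872 and 0.394 TPM at 0 h (adjusted p = 0.00516; 0.117 without the block). FSTL3, which traps activins, measured 218 and 242 TPM at 12 h, against 85.1 and 76.7 TPM at 0 h (adjusted p = 0.0204; 0.0827 without the block). BMP6, a BMP ligand, measured 21.7 and 28.7 TPM at 12 h, against 6.16 and 6.18 TPM at 0 h (adjusted p = 0.0237; 0.121 without the block). The fourth, BMP1, is a matrix protease in spite of its name and is given with the collagen enzymes. INHBB, the beta-B subunit of activin and inhibin, fell with GDF15, and measured 1.91 and 2.85 TPM at 12 h, against 18.7 and 43.2 TPM at 0 h (log2 fold change -3.14 with an SE of 0.36, adjusted p = 0.00166). ID1, a BMP target that represses differentiation, measured 258 and 351 TPM at 12 h, against 139 and 174 TPM at 0 h and was just short of the threshold (adjusted p = 0.0534).

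Of 15 EMT transcription factors, SNAI1 rose and EHF fell (list median 0.55). SNAI1, the E-cadherin repressor, measured 13.8 and 7.22 TPM at 12 h, against 1.85 and 0.643 TPM at 0 h (log2 fold change 2.35 with an SE of 0.31, adjusted p = 0.00251; 0.121 without the block). EHF, an ETS factor of epithelia, measured 1.11 and 1.52 TPM at 12 h, against 10.1 and 20.501 TPM at 0 h (log2 fold change -2.74 with an SE of 0.56, adjusted p = 0.0207; 0.0994 without the block). The other repressors were not called. ZEB1 measured 58.4 and 40.9 TPM at 12 h, against 28.48 and 27.2 TPM at 0 h (adjusted p = 0.386), and ZEB2 6.004 and 3.11 TPM at 12 h, against 3.32 and 1.41 TPM at 0 h (adjusted p = 0.174). SNAI2 measured 6.21 and 1.77 TPM at 12 h, against 2.08 and 0.104 TPM at 0 h (adjusted p = 0.123), with 12 h replicate 2 below 0 h replicate 1. TWIST1 measured 1.60 and 2.60 TPM at 12 h, against 3.86 and 3.32 TPM at 0 h (adjusted p = 0.491).

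The cadherins moved in opposite directions, on top of a steady difference between the replicates. CDH1 (E-cadherin) measured 7.45 and 12.3 TPM at 12 h, against 30.1 and 57.1 TPM at 0 h (log2 fold change -2.01 with an SE of 0.34, adjusted p = 0.00778). CDH2 (N-cadherin) measured 157 and 80.7 TPM at 12 h, against 76.4 and 34.2 TPM at 0 h (log2 fold change 1.12 with an SE of 0.16, adjusted p = 0.00406). In each pair CDH1 was lower and CDH2 higher at 12 h, while replicate 1 had less CDH1 and more CDH2 than replicate 2 at both times. Without the block their adjusted p was 0.425 for CDH1 and 0.511 for CDH2. Of 33 epithelial junction and identity genes, 2 rose and 3 fell (median -0.28). Besides CDH1 the genes that fell were the tight junction scaffold TJP3, chosen after its values were seen, at 0.418 and 0.448 TPM at 12 h, against 3.80 and 4.52 TPM at 0 h, and the polarity gene PARD6B, at 7.92 and 11.6 TPM at 12 h, against 20.9 and 26.2 TPM at 0 h. Both genes that rose are themselves junction genes. CLDN4, a tight junction claudin, measured 49.9 and 65.48 TPM at 12 h, against 3.01 and 3.57 TPM at 0 h (log2 fold change 3.77 with an SE of 0.49, adjusted p = 0.00251), and CTNNA1, the alpha-catenin that links cadherins to actin, measured 473 and 412 TPM at 12 h, against 239.8 and 256 TPM at 0 h. PARD6B and CTNNA1 were not called without the block (adjusted p = 0.104 and 0.0605), whereas TJP3 and CLDN4 were. EPCAM, which joins epithelial cells, measured 4.56 and 8.20 TPM at 12 h, against 8.95 and 9.37 TPM at 0 h (adjusted p = 0.628), and the keratin KRT18 was not called either (adjusted p = 0.676). Of 16 mesenchymal adhesion genes and markers, 4 rose and none fell (median 0.76). VIM, the intermediate filament vimentin, measured 2377 and 1861 TPM at 12 h, against 1148 and 1026 TPM at 0 h (log2 fold change 0.95 with an SE of 0.19, adjusted p = 0.0161; 0.0863 without the block). FN1, fibronectin, measured 676 and 298 TPM at 12 h, against 280.3 and 173 TPM at 0 h (log2 fold change 1.03 with an SE of 0.24, adjusted p = 0.0389; 0.581 without the block), and NT5E, the ectonucleotidase CD73, 105 and 59.05 TPM at 12 h, against 30.9 and 31.4 TPM at 0 h. None of the 4 was called without the block, NT5E with an adjusted p of 0.0906.

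Among collagens, 10 of 23 rose and none fell (median 0.34), and 3 of the 10 were called without the block. COL1A1, the alpha-1 chain of fibrillar type I collagen, measured 274 and 47.3 TPM at 12 h, against 8.63 and 2.74 TPM at 0 h (log2 fold change 4.26 with an SE of 0.50, adjusted p = 0.00169; 0.166 without the block). The 12 h libraries lay far apart, both well above those of 0 h, and its log2 difference was 4.83 in replicate 1 and 3.69 in replicate 2. COL5A1, a chain of type V collagen that was chosen after its values were seen, likewise stood apart in replicate 1, at 415 and 57.6 TPM at 12 h, against 49.7 and 8.79 TPM at 0 h (adjusted p = 0.000981; 0.461 without the block). COL22A1, a collagen of tissue junctions, measured 20.4 and 8.07 TPM at 12 h, against 0.581 and 0.207 TPM at 0 h (log2 fold change 3.33 with an SE of 0.34, adjusted p = 0.000772).

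The basement membrane collagen of type IV is built from 6 chains whose genes lie head to head in pairs, so that each pair shares the stretch between its start sites. COL4A1 measured 575 and 341 TPM at 12 h, against 69.2 and 29.6 TPM at 0 h (log2 fold change 3.26 with an SE of 0.39, adjusted p = 0.00169), and its partner COL4A2, chosen with the rest of the family after the values were seen, 561 and 223 TPM at 12 h, against 105 and 53.7 TPM at 0 h (log2 fold change 2.22, adjusted p = 0.00232; 0.164 without the block). COL4A3 measured 38.7 and 35.7 TPM at 12 h, against 11.6 and 11.9 TPM at 0 h (log2 fold change 1.58, adjusted p = 0.0321; 0.0815 without the block), and its partner COL4A4 36.9 and 23.7 TPM at 12 h, against 10.9 and 7.11 TPM at 0 h (log2 fold change 1.64, adjusted p = 0.00927). All 4 were higher in both 12 h libraries than in either 0 h library. The third pair, on the X chromosome, was not called: COL4A5 measured 38.4 and 24.7 TPM at 12 h, against 46.3 and 40.03 TPM at 0 h (adjusted p = 0.374) and COL4A6 20.3 and 10.1 TPM at 12 h, against 26.1 and 16.8 TPM at 0 h (adjusted p = 0.647). The start sites of COL4A1 and COL4A2 are 127 bases apart, and those of COL4A3 and COL4A4 419 bases apart, in the RefSeq promoters of GRCh38.p14. The sequence shown for the first pair is all that separates its start sites, chr13:110307158-110307283, and for the second the 82 bases upstream of both genes that the promoter windows share, chr2:227164374-227164455. Both are given on the plus strand with no base capitalised.
COL4A1-COL4A2: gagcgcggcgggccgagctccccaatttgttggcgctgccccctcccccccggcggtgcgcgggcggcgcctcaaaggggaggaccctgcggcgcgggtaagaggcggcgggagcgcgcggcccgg
COL4A3-COL4A4: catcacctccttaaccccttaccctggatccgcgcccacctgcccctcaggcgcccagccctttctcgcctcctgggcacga

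Of 20 collagen-modifying enzymes, 5 rose and none fell (median 0.33). P4HA3, a collagen prolyl hydroxylase subunit, measured 122 and 76.2 TPM at 12 h, against 29.9 and 10.1 TPM at 0 h. PLOD2, which hydroxylates lysines for cross-links, measured 494 and 414 TPM at 12 h, against 273 and 132 TPM at 0 h (adjusted p = 0.0121; 0.130 without the block). BMP1, which cleaves procollagen propeptides, measured 106 and 55.9 TPM at 12 h, against 37.8 and 26.8 TPM at 0 h (log2 fold change 1.25 with an SE of 0.17, adjusted p = 0.00338; 0.121 without the block). Among 29 matrix glycoproteins and proteoglycans 5 rose, none fell, and the median was 0.52. THBS1, thrombospondin-1, which can activate latent TGF-beta, measured 813 and 329.5 TPM at 12 h, against 122 and 58.4 TPM at 0 h (log2 fold change 2.60 with an SE of 0.30, adjusted p = 0.00169; 0.0756 without the block). SDC4, a heparan sulfate proteoglycan of focal adhesions chosen after its values were seen, measured 92.1 and 92.53 TPM at 12 h, against 24.03 and 20.6 TPM at 0 h (adjusted p = 0.00222).

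Of 16 integrin subunits, 5 rose and none fell (median 0.90), but none of these calls was made without the block. ITGB6, whose heterodimer with ITGAV activates latent TGF-beta, measured 40.8 and 35.7 TPM at 12 h, against 14.2 and 7.03 TPM at 0 h. ITGAV itself measured 364 and 304 TPM at 12 h, against 161 and 101 TPM at 0 h. ITGA11, a collagen receptor subunit, measured 56.1 and 11.2 TPM at 12 h, against 8.47 and 1.47 TPM at 0 h, and was far higher in replicate 1 than in replicate 2 at both times. ITGA5, the fibronectin receptor subunit, measured 67.996 and 33.48 TPM at 12 h, against 18.9 and 13.4 TPM at 0 h (adjusted p = 0.00453), and its partner ITGB1 was not called. ITGB3, the partner of ITGAV in the vitronectin receptor, measured 13.6 and 5.38 TPM at 12 h, against 3.28 and 1.60 TPM at 0 h. The adjusted p without the block ran from 0.0578 for ITGB6 to 0.389 for ITGB3. ITGAV and ITGA5 were chosen after their values were seen.

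Among 28 extracellular proteases and inhibitors, 10 rose and none fell (median 0.54; 5 without the block). MMP2, gelatinase A, measured 84.8 and 9.502 TPM at 12 h, against 8.82 and 0.871 TPM at 0 h (log2 fold change 2.81 with an SE of 0.37, adjusted p = 0.00251; 0.425 without the block): the 12 h library of replicate 2 was close to the 0 h library of replicate 1. MMP9, gelatinase B, measured 3.86 and 0.583 TPM at 12 h, against 0.374 and 0.0415 TPM at 0 h and was not called (adjusted p = 0.119). Inhibitors of metalloproteases moved the same way, TIMP2 at 454 and 183 TPM at 12 h, against 73.1 and 47.8 TPM at 0 h and TIMP3 at 12.8 and 2.89 TPM at 12 h, against 0.726 and 0.0207 TPM at 0 h. PLAU, the serine protease urokinase, rose to 257 and 157 TPM at 12 h, against 79.3 and 71.9 TPM at 0 h, and its receptor PLAUR to 92.3 and 88.9 TPM at 12 h, against 31.3 and 35.49 TPM at 0 h. PLAUR was called without the block as well, but not TIMP2, TIMP3 or PLAU (adjusted p = 0.143, 0.298 and 0.387). TIMP2, TIMP3, PLAU, PLAUR and the crosslinking enzyme TGM2 were chosen after their values were seen. TGM2, transglutaminase 2, measured 940.0 and 263 TPM at 12 h, against 142 and 63.7 TPM at 0 h (log2 fold change 2.37 with an SE of 0.18, adjusted p = 0.000119), with an adjusted p of 0.326 without the block.

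Of 30 contractile and focal adhesion genes 12 rose and 2 fell (median 0.85), against 1 and 1 without the block. TAGLN, the actin-binding smooth muscle protein transgelin, measured 401 and 203 TPM at 12 h, against 80.2 and 9.31 TPM at 0 h (log2 fold change 3.31 with an SE of 0.49, adjusted p = 0.00484; 0.125 without the block). CNN1, calponin-1, measured 15.51 and 19.9 TPM at 12 h, against 1.25 and 0.663 TPM at 0 h (log2 fold change 3.27 with an SE of 0.44, adjusted p = 0.00269) and is the member called without the block. PDLIM7, a cytoskeletal scaffold, measured 231 and 108 TPM at 12 h, against 51.97 and 27.2 TPM at 0 h. The abundant tropomyosin TPM1 and the focal adhesion protein ZYX, called members of the list, were chosen after their values were seen. TPM1 measured 4725 and 3943 TPM at 12 h, against 1479 and 799 TPM at 0 h, and ZYX 248 and 58.1 TPM at 12 h, against 47.1 and 18.1 TPM at 0 h. The genes that fell were the caveola gene SDPR, given above, and MYLK, the myosin light chain kinase, at 22.47 and 23.9 TPM at 12 h, against 39.995 and 76.53 TPM at 0 h. Outside the list, regulators of contractile genes were looked up after the values were seen. SRF, the serum response factor, measured 37.96 and 32.99 TPM at 12 h, against 16.8 and 11.6 TPM at 0 h (log2 fold change 1.28, adjusted p = 0.0281). Its coactivators also rose, MKL1 with 107 and 47.9 TPM at 12 h, against 38.4 and 28.9 TPM at 0 h, and MYOCD, the coactivator of smooth muscle, with 18.7 and 6.54 TPM at 12 h, against 3.49 and 0.497 TPM at 0 h. PDLIM7, TPM1, ZYX, MYLK, SRF, MKL1 and MYOCD all missed the threshold without the block, with adjusted p from 0.156 for PDLIM7 to 0.546 for ZYX.

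The called members of the oxidant defence list, which was drawn up with earlier results of these data known, all fell. Of 34 NRF2 target genes 7 fell and none rose, 3 had a log2 fold change above 0, the median was -0.58, and the summed level was 23018 and 29388 TPM at 12 h, against 37506 and 40629 TPM at 0 h. GCLC and GCLM, the subunits of the enzyme that limits glutathione synthesis, both fell. GCLC measured 54.8 and 57.95 TPM at 12 h, against 187 and 188 TPM at 0 h (log2 fold change -1.72 with an SE of 0.19, adjusted p = 0.00110; 0.00654 without the block). GCLM measured 48.3 and 45.51 TPM at 12 h, against 99.2 and 99.6 TPM at 0 h. TXNRD1, thioredoxin reductase 1, lost the most TPM of all called genes, at 475 and 558 TPM at 12 h, against 1364 and 1435 TPM at 0 h (log2 fold change -1.44 with an SE of 0.19, adjusted p = 0.00269; 0.0232 without the block). In GCLC, GCLM and TXNRD1 the replicates of a time lay close together and the times far apart. OSGIN1, an oxidative-stress-induced growth inhibitor, measured 4.46 and 5.85 TPM at 12 h, against 34.8 and 47.6 TPM at 0 h. The efflux pumps ABCG2 and ABCC2 also fell, ABCG2 to 5.4996 and 15.8 TPM at 12 h, against 27.1 and 47.1 TPM at 0 h. ABCC2 measured 60.2 and 55.2 TPM at 12 h, against 202 and 264 TPM at 0 h. Of the 7 genes, GCLC and TXNRD1 were called without the block; the adjusted p was then 0.0815 for GCLM, 0.0574 for OSGIN1, 0.268 for ABCG2 and 0.307 for ABCC2. Other familiar NRF2 targets missed the threshold: NQO1 measured 1565 and 1924 TPM at 12 h, against 2483 and 2372 TPM at 0 h (adjusted p = 0.355) and AKR1B10, an aldo-keto reductase, 1030.4 and 1610.3 TPM at 12 h, against 2988 and 3343 TPM at 0 h (adjusted p = 0.119). HMOX1, heme oxygenase-1, measured 125 and 178 TPM at 12 h, against 146 and 131 TPM at 0 h (adjusted p = 0.938). GCLC, GCLM, TXNRD1, NQO1, AKR1B10 and HMOX1 were chosen after their values were seen.

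**Figure D3:**
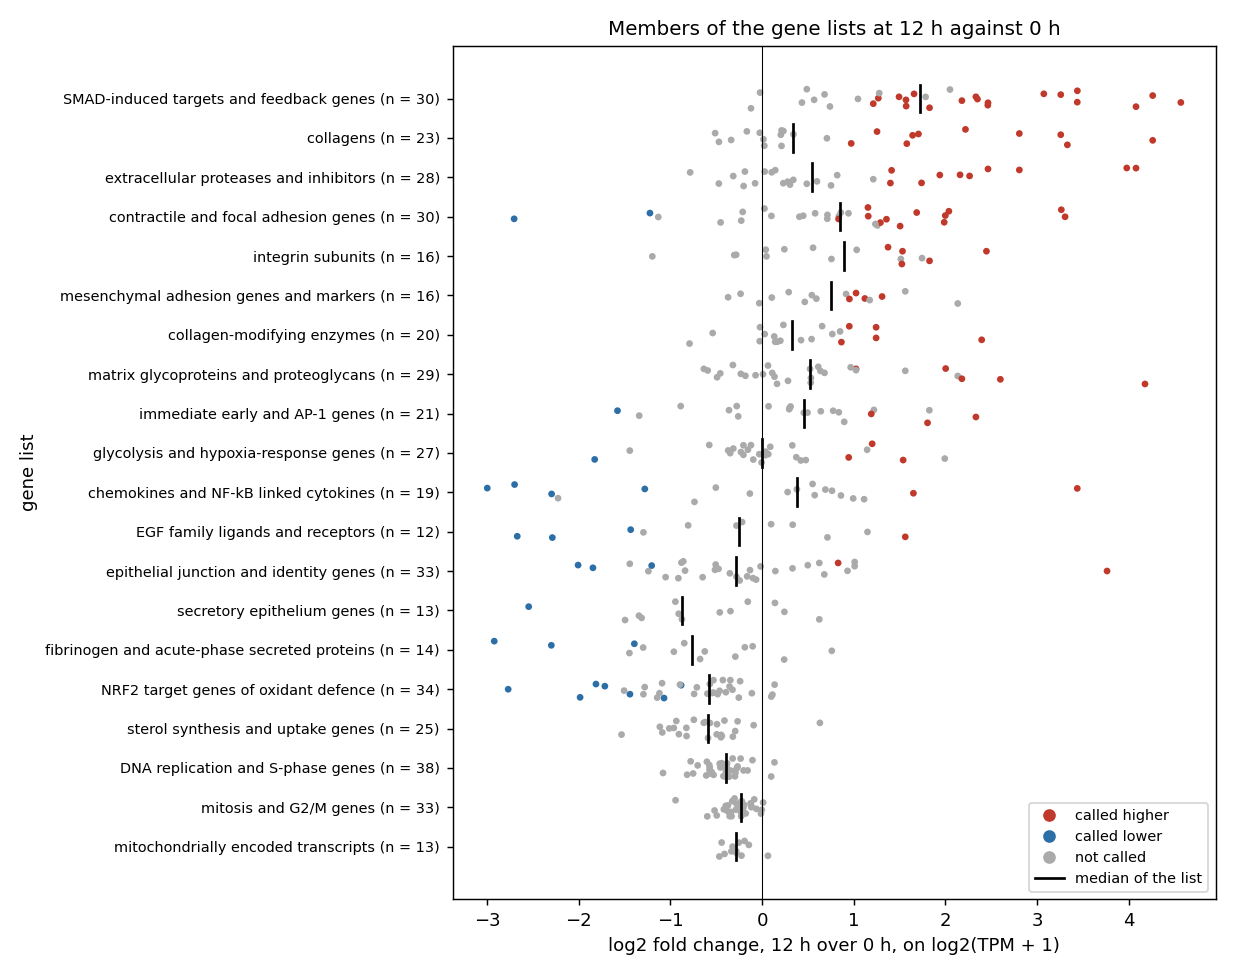
Log2 fold changes at 12 h over 0 h (x axis) of the tested members of 20 gene lists (rows), one point per gene, with red for genes called higher, blue for genes called lower, grey for genes not called and a black bar for the median of the list. The SMAD target list has a median of 1.72 with 19 of 30 members called higher, and the NRF2 list a median of -0.58 with 7 of 34 called lower.

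Ligands of the EGF receptor parted. AREG, amphiregulin, measured 7.45 and 5.78 TPM at 12 h, against 46.2 and 48.3 TPM at 0 h (log2 fold change -2.67 with an SE of 0.63, adjusted p = 0.0425; 0.104 without the block). EREG, epiregulin, measured 9.89 and 4.997 TPM at 12 h, against 44.9 and 32.9 TPM at 0 h (log2 fold change -2.29 with an SE of 0.44, adjusted p = 0.0154), and BTC, betacellulin, 0.487 and 1.501 TPM at 12 h, against 3.34 and 5.24 TPM at 0 h. HBEGF, heparin-binding EGF, rose instead, at 10.51 and 5.69 TPM at 12 h, against 3.01 and 1.20 TPM at 0 h (adjusted p = 0.0376; 0.420 without the block). In all, 1 of 12 EGF family genes rose and 3 fell (median -0.25). AREG, EREG and BTC are neighbours on chromosome 4, with no other tested protein-coding gene of the RefSeq table between them. Chemokines and NF-kB linked cytokines parted in the same manner, with 2 of 19 higher and 4 lower (median 0.38). The neutrophil chemokines CXCL1, CXCL3 and CXCL5 fell. CXCL5 measured 18.6 and 7.51 TPM at 12 h, against 93.2 and 112 TPM at 0 h (log2 fold change -3.00 with an SE of 0.56, adjusted p = 0.0131). CXCL1 measured 7.24 and 4.08 TPM at 12 h, against 45.8 and 36.7 TPM at 0 h (log2 fold change -2.70 with an SE of 0.56, adjusted p = 0.0222; 0.0582 without the block), and CXCL3 0.975 and 0.874 TPM at 12 h, against 8.84 and 8.06 TPM at 0 h. CSF1, the macrophage growth factor, fell as well, at 5.19 and 4.03 TPM at 12 h, against 12.4 and 12.7 TPM at 0 h. BTC and CSF1 were chosen after their values were seen. IL11, a cytokine of fibrosis, rose, at 548.8 and 276 TPM at 12 h, against 53.7 and 22.6 TPM at 0 h (log2 fold change 3.44 with an SE of 0.29, adjusted p = 0.000356; 0.0320 without the block), and so did CCL2, a monocyte chemokine, at 44.9 and 70.7 TPM at 12 h, against 15.2 and 19.53 TPM at 0 h. BTC, CSF1 and CCL2 missed the threshold without the block (adjusted p = 0.167, 0.0905 and 0.107).

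The called genes of the acute-phase and secretory lists all fell. Of 14 fibrinogen and acute-phase genes 3 fell and none rose (median -0.76), and none was called without the block. FGA, the fibrinogen alpha chain, measured 1.53 and 5.67 TPM at 12 h, against 15.3 and 58.4 TPM at 0 h (log2 fold change -2.92 with an SE of 0.37, adjusted p = 0.00219; 0.266 without the block). FGG, the gamma chain, measured 2.23 and 7.26 TPM at 12 h, against 11.02 and 52.7 TPM at 0 h, and the complement gene C5 11.02 and 25.8 TPM at 12 h, against 29.3 and 72.2 TPM at 0 h (adjusted p without the block 0.485 for FGG and 0.514 for C5). For FGA and FGG, replicate 2 was well above replicate 1 at both times, and both pairs showed the decrease. Of 13 secretory epithelium genes 1 fell (median -0.87): SPDEF, the ETS factor of goblet cells, measured 0.540 and 0.874 TPM at 12 h, against 5.98 and 13.1 TPM at 0 h (log2 fold change -2.55 with an SE of 0.32, adjusted p = 0.00213). AGR2, a disulfide isomerase of mucus-secreting cells chosen after its values were seen, measured 40.6 and 143 TPM at 12 h, against 136 and 344 TPM at 0 h and was not called (adjusted p = 0.123).

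Other lists held few calls, and most of these were lost without the block; the value in brackets after such a gene is its adjusted p without the block. Of 20 Wnt genes WNT5B rose (0.0597) while RNF43 (0.190), which removes Wnt receptors, and LGR4 (0.378), an R-spondin receptor, fell (median -0.23); RNF43 measured 1.24 and 2.71 TPM at 12 h, against 8.72 and 23.1 TPM at 0 h. Of 21 immediate early genes, JUNB (0.0815), IER2 (0.671) and IER3 rose and DUSP4, a MAP kinase phosphatase, fell (median 0.46). IER3, a stress response gene, measured 364 and 471 TPM at 12 h, against 117 and 118 TPM at 0 h (log2 fold change 1.81 with an SE of 0.22, adjusted p = 0.00169), and DUSP4 41.9 and 29.1 TPM at 12 h, against 100.1 and 113 TPM at 0 h. Of 27 glycolysis and hypoxia genes the glucose transporters SLC2A1 and SLC2A3 (0.0931) and the phosphofructokinase PFKP (0.0700) rose and the carbonic anhydrase CA12 (0.0926) fell (median -0.0047). SLC2A1 measured 192 and 176 TPM at 12 h, against 91.1 and 69.2 TPM at 0 h (log2 fold change 1.20 with an SE of 0.18, adjusted p = 0.00516). Of 11 fatty acid synthesis genes ACLY (0.0906), ATP citrate lyase, rose, at 1033 and 893 TPM at 12 h, against 575 and 447 TPM at 0 h. The elongase ELOVL6 of the same list fell, at 12.1 and 8.90 TPM at 12 h, against 36.7 and 29.8 TPM at 0 h. HSPB1, the small heat shock protein HSP27, was the single member of 16 heat shock genes that rose, at 1056 and 1442 TPM at 12 h, against 312 and 223 TPM at 0 h (log2 fold change 2.22 with an SE of 0.34, adjusted p = 0.00516). The chaperone genes HSPA5 (0.588) and MANF (0.0815) rose among 20 unfolded protein response genes (median 0.31). GADD45B (0.232), a stress gene that TGF-beta induces, and TP53I3 rose and the CDK inhibitor CDKN1B (0.0905) fell among 20 G1 and p53 genes (median -0.18); GADD45B measured 172 and 133 TPM at 12 h, against 34.95 and 19.3 TPM at 0 h. Of 31 interferon and antigen presentation genes 2 fell, among them IFIT1 (0.160), an interferon-induced RNA-binding protein, and none rose (median -0.22); IFIT1 measured 0.244 and 0.627 TPM at 12 h, against 3.47 and 3.46 TPM at 0 h. Of 16 YAP and TEAD targets, CTGF (0.305), F3 (0.0815) and NT5E (0.0906) rose (median 0.13); F3, tissue factor, measured 28.98 and 22.6 TPM at 12 h, against 5.60 and 2.59 TPM at 0 h. Of 15 IGFL and IGF-binding genes IGFL1 (0.0700) and IGFL2 (0.366) rose (median 0.45).

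No gene was called in the lists of DNA replication (38 genes, median -0.40), mitosis (33 genes, median -0.23), sterol synthesis (25 genes, median -0.59), the ATF4 response (21 genes, median -0.12), ribosome biogenesis (25 genes, median -0.05) and cytosolic ribosomal proteins (46 genes, median -0.16). The medians of replication and mitosis genes were below 0 in both pairs, and 2 of 38 and 1 of 33 members lay above 0. MKI67, the proliferation marker Ki-67, measured 139.8 and 62.7 TPM at 12 h, against 105 and 123 TPM at 0 h (adjusted p = 0.939), so that the 12 h libraries lay on either side of those of 0 h. CDKN1A, the CDK inhibitor p21, measured 146 and 137 TPM at 12 h, against 106 and 58.6 TPM at 0 h (adjusted p = 0.221), and MYC 154 and 69.04 TPM at 12 h, against 96.6 and 71.2 TPM at 0 h (adjusted p = 0.720). The 5 abundant nuclear non-coding RNAs held no call either (median -0.45). At an unadjusted p below 0.05 in the same limma fit, 6 replication genes, 1 mitosis gene, 5 sterol genes and 1 nuclear non-coding RNA were lower, and 1 sterol gene and 1 ATF4 gene were higher.

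Genes of chorionic gonadotropin beta, a placental hormone subunit, were among the steepest rises. CGB8 measured 35.503 and 38.03 TPM at 12 h, against 1.72 and 0.912 TPM at 0 h (log2 fold change 4.05 with an SE of 0.28, adjusted p = 6.99e-05; 0.000127 without the block), and CGB5 15.6 and 13.3 TPM at 12 h, against 0.581 and 0.249 TPM at 0 h (log2 fold change 3.45 with an SE of 0.36, adjusted p = 0.000967). CGB7, chosen after its values were seen, measured 8.06 and 5.33 TPM at 12 h, against 0.560 and 0.373 TPM at 0 h (adjusted p = 0.00406). The remaining copies CGB, CGB1 and CGB2 stayed at or below 2.40 TPM in the 4 libraries and were not called. These copies are nearly identical, and RSEM's sharing of reads among them is uncertain, so the sum over the 6 is the safer value: 62.8 and 61.9 TPM at 12 h, against 3.90 and 1.53 TPM at 0 h. To show how alike CGB5 and CGB8 are next to their starts, 100 bases upstream of the RefSeq start of each are printed. The base that differs is in capitals, and 99 of the 100 are identical. The 2 stretches were aligned with an offset of 10 bases relative to the starts. The transcribed sequences and the other copies were not compared. CGB5 is on the plus strand (chr19:49043738-49043837) and CGB8 on the minus strand (chr19:49049112-49049211) of GRCh38.p14.
CGB5: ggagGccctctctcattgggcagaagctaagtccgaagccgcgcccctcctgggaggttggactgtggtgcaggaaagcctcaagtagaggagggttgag
CGB8: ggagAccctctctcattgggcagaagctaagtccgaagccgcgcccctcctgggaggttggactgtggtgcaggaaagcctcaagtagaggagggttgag

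**Figure D4:**
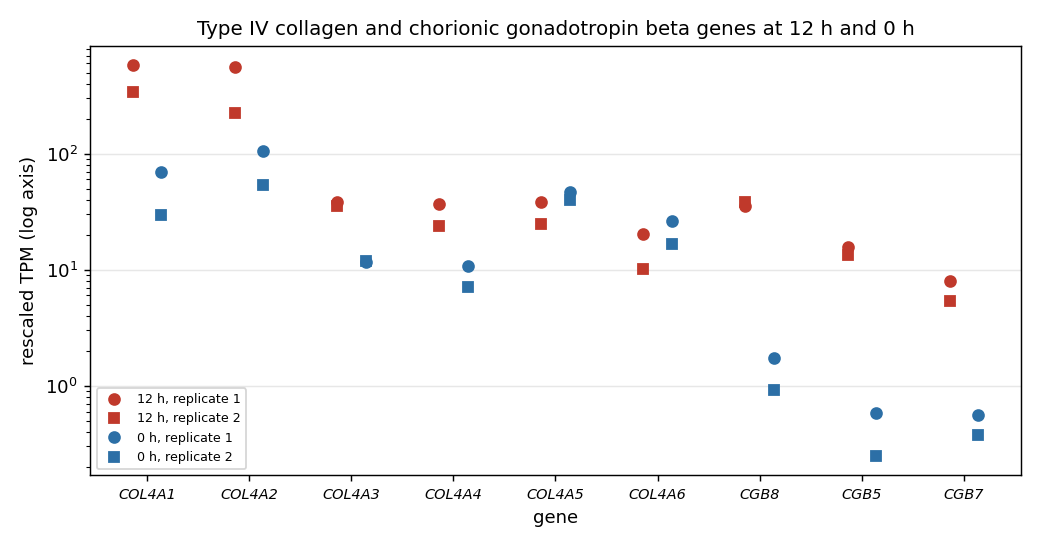
Rescaled TPM (log y axis) of the 6 type IV collagen genes and of CGB8, CGB5 and CGB7, with 12 h in red to the left of 0 h in blue and circles for replicate 1, squares for replicate 2. COL4A1 to COL4A4 and the CGB genes have both 12 h points above both 0 h points, whereas COL4A5 and COL4A6 do not.

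Further signalling and transcription factor genes were looked up after their values were seen. FGF2, basic fibroblast growth factor, rose, at 151 and 133 TPM at 12 h, against 41.8 and 32.2 TPM at 0 h (adjusted p = 0.00755; 0.0815 without the block). LEFTY2, an inhibitor of nodal signalling, measured 2.82 and 11.8 TPM at 12 h and was listed at 0 in both 0 h libraries (adjusted p = 0.00946; 0.298 without the block). The semaphorin SEMA7A measured 18.95 and 12.3 TPM at 12 h, against 0.519 and 0.643 TPM at 0 h (adjusted p = 0.0326; 0.252 without the block), and S1PR5, a receptor of sphingosine-1-phosphate, 18.3 and 27.9 TPM at 12 h, against 2.01 and 3.79 TPM at 0 h (adjusted p = 0.00660). FURIN, the convertase that processes pro-TGF-beta, measured 134 and 99.6 TPM at 12 h, against 29.2 and 21.2 TPM at 0 h (log2 fold change 2.17 with an SE of 0.23, adjusted p = 0.000967). Transcription factors that rose included ETS2, at 287 and 206 TPM at 12 h, against 60.2 and 33.4 TPM at 0 h (adjusted p = 0.00110), and HNF4A, a nuclear receptor best known from liver and gut, at 136 and 104 TPM at 12 h, against 28.04 and 20.9 TPM at 0 h (adjusted p = 0.00810; 0.0700 without the block). RUNX1, a runt-domain factor, measured 48.1 and 13.9 TPM at 12 h, against 10.7 and 5.33 TPM at 0 h (adjusted p = 0.0196; 0.499 without the block). Genes that fell included KITLG, the ligand of the KIT receptor, at 5.26 and 3.36 TPM at 12 h, against 32.1 and 23.53 TPM at 0 h (adjusted p = 0.0439; 0.0905 without the block), and MAP2K6, a kinase upstream of p38, at 6.42 and 5.56 TPM at 12 h, against 28.9 and 32.502 TPM at 0 h (adjusted p = 0.0244; 0.0975 without the block). PER2, a circadian clock repressor, measured 4.44 and 1.48 TPM at 12 h, against 10.98 and 12.46 TPM at 0 h (adjusted p = 0.0220; 0.0520 without the block). The imprinted long non-coding RNAs MEG3 and MEG8, which lie in the same cluster, both rose: MEG3 measured 83.47 and 31.2 TPM at 12 h, against 9.67 and 9.37 TPM at 0 h (adjusted p = 0.00674) and MEG8 29.8 and 18.8 TPM at 12 h, against 4.23 and 3.67 TPM at 0 h (adjusted p = 0.00516).

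Where 12 h stands in the course was asked with its neighbouring times. No gene was called between 12 h and 6 h in either direction (0% and 0% of 21216 genes, limma; lowest adjusted p 0.0808). At an unadjusted p below 0.05, 2723 genes were higher and 419 lower at 12 h, on top of a shift of 0.23 in the median of all genes. The median 12 h minus 6 h difference was 0.66 over the 478 genes that rose above 0 h and -0.39 over the 210 that fell. Those genes were chosen by the same 12 h libraries, so these medians, and those against 24 h, are descriptions of the choice as well as of the times. ANGPTL4 and CLDN4 were already near their 12 h level at 6 h, ANGPTL4 with 183 and 139 TPM at 6 h and CLDN4 with 61.4 and 39.8 TPM at 6 h. COL1A1 and CDH2 lay closer to 0 h than to 12 h, COL1A1 with 23.6 and 10.9 TPM at 6 h and CDH2 with 73.8 and 44.004 TPM at 6 h. For COL1A1 the 12 h minus 6 h difference was 2.75 (adjusted p = 0.197) and for CDH2 0.97 (adjusted p = 0.114), so neither step passed the test. GDF15 was already at 6.16 and 10.9 TPM at 6 h.

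Between 24 h and 12 h, 1 gene was called higher (0.00471%) and 1 lower (0.00471%), and 228 and 311 passed an unadjusted p below 0.05. These were AP003550.1, with 2.82 and 3.30 TPM at 24 h and listed at 0 in both 12 h libraries, and AC019205.2, listed at 0 in both 24 h libraries, against 4.32 and 2.58 TPM at 12 h. Both are low, and neither matched the annotation used. For each, the libraries of the time at which it was listed were enough to pass the filter on low values. The 478 genes had a median 24 h minus 12 h difference of 0.01 and the 210 genes one of -0.11. Single genes moved further without a call. IGFL1 measured 211 and 715 TPM at 24 h (difference 2.74, adjusted p = 1). AGR2 measured 332 and 287 TPM at 6 h, then 40.6 and 143 TPM at 12 h and then 4.14 and 13.8 TPM at 24 h (24 h minus 12 h -3.15, adjusted p = 0.113). CDH1 measured 2.26 and 6.31 TPM at 24 h, below both of its 12 h values (adjusted p = 1).

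**Figure D5:**
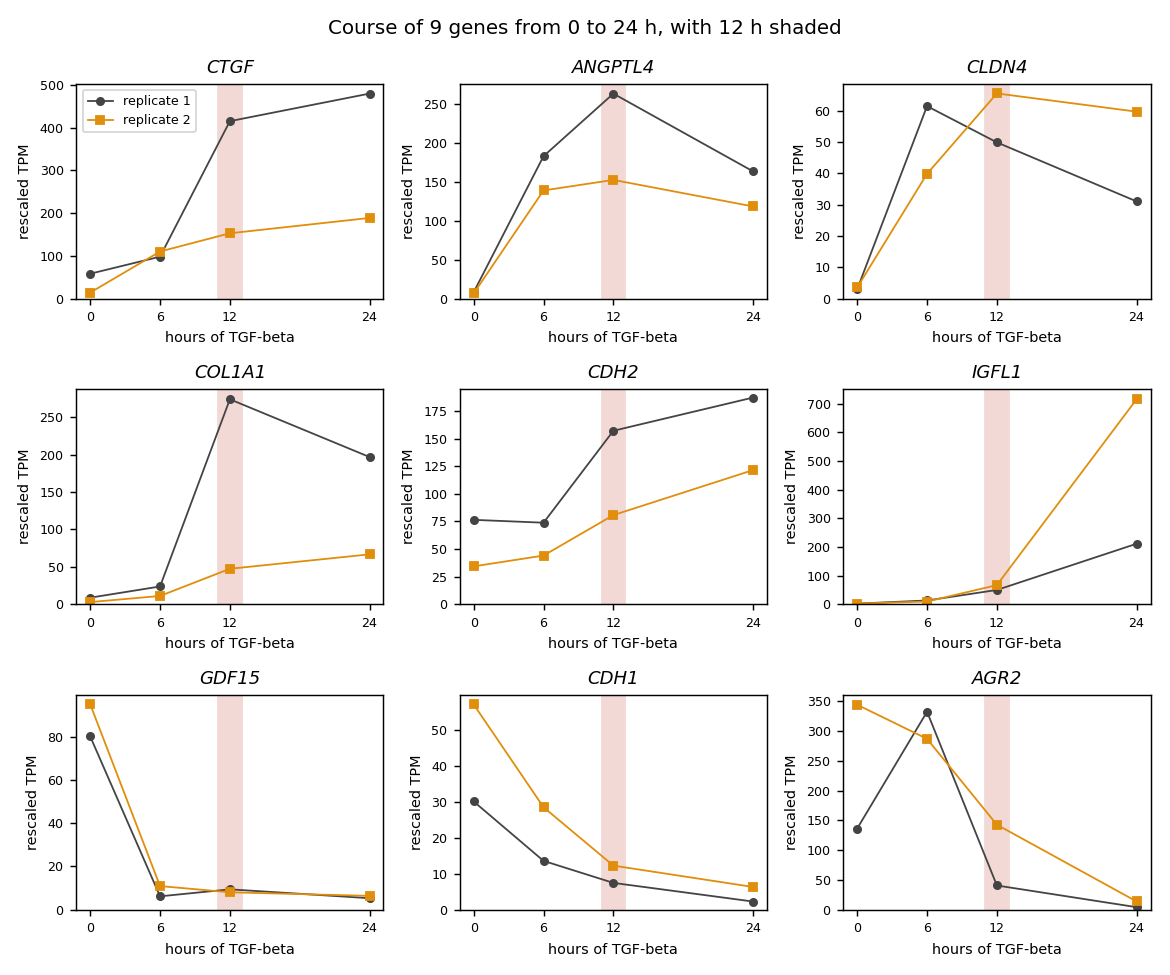
Rescaled TPM (y axis, each panel from 0) against hours of TGF-beta (x axis) for 9 genes, with a line for each replicate and the 12 h point shaded. ANGPTL4 and CLDN4 are high from 6 h, COL1A1 and CDH2 are higher at 12 h than at 6 h, IGFL1 is higher at 24 h than at 12 h and AGR2 is lowest at 24 h.

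Among markers of other cell types, 1 of 2 endothelial genes tested rose and 1 of 5 leukocyte genes fell. No erythroid marker of 7 passed the filter on low values, and their sum stayed at or below 0.870 TPM. Of 9 fibroblast markers tested none was called; SFRP2 was at 0 in all 4 libraries and DCN at or below 1.39 TPM. Of the leukocyte markers 5 were tested and 1 fell, CD14, chosen after its values were seen, at 0.365 and 0.964 TPM at 12 h, against 2.18 and 3.77 TPM at 0 h (adjusted p = 0.0412; 0.104 without the block); PTPRC, the common leukocyte antigen, was at or below 0.270 TPM. Of the endothelial markers 2 were tested and 1 rose: ESAM, an adhesion molecule, measured 12.1 and 10.49 TPM at 12 h, against 1.14 and 0.767 TPM at 0 h (adjusted p = 0.00674), while VWF and KDR were at or below 0.0829 TPM and ERG was at 0. None of 5 nerve and muscle markers tested was called. Just 1 of the 5 had a log2 fold change above 0, and their median was -0.11. The sum over all matched members was nonetheless higher in both pairs, at 328 and 282 TPM at 12 h, against 212 and 205 TPM at 0 h. TUBB3, a neuronal beta-tubulin named after its values were seen, made up most of it, at 294 and 261 TPM at 12 h, against 166 and 159 TPM at 0 h (adjusted p = 0.109). Summed over all matched members, the fibroblast markers reached 78.1 and 53.1 TPM at 12 h, against 67.1 and 78.0 TPM at 0 h. The leukocyte markers reached 26.9 and 20.3 TPM at 12 h, against 14.2 and 25.7 TPM at 0 h. The endothelial sum was 15.4 and 11.5 TPM at 12 h, against 2.59 and 2.67 TPM at 0 h, and ESAM made up most of it at 12 h. The part of these markers in the results was not tested. Of 11 A549 and lung epithelial identity markers tested, CDH1 fell and the rest were not called.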

How the data were processed

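RNA of A549 cells was sequenced at 8 times, with 2 libraries each, from total RNA with an Illumina TruSeq kit (labels' protocols). TPM per gene were deposited by the authors. The submitters' processing notes name Bowtie and RSEM, with no version. The genome build is not given in the sources used here. The tables hold 57773 genes. RN7SL1, RN7SL2, RN7SL3, RN7SK, RMRP and RPPH1 were dropped and the rest rescaled to the usual TPM total. Genes with at least 1 rescaled TPM in at least 2 libraries were kept (21216). Log2(TPM + 1) of all 16 libraries was fitted with limma 3.58.1 in R 4.3.3, with time and replicate number as terms, empirical Bayes with a mean trend, two-sided, and Benjamini-Hochberg adjustment within each comparison; genes below an adjusted p of 0.05 were called. Fold changes are on the log2(TPM + 1) scale, which understates low genes. The fit was tested on simulated data first.

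The labels do not state that a replicate number marks a shared culture or batch. Deviations of same-numbered libraries from the means of their times correlated above 0.1 in 27 of 28 pairs of times (lowest 0.0734, 0 h with 12 h 0.264), so results without the block are also given. No libraries were identical.

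The genes named were the 15 largest rises and 15 largest falls among called genes with at least 5 TPM on average in the higher time and no overlap, from each of 42 lists up to 3 called members in each direction, and 27 fixed genes; others are said to be chosen after their values were seen. A few genes that the rule names are not reported here. The members and lists were chosen with earlier results of these data known. Lists are described by counts and medians. Biotypes came from GENCODE 29, which matched 20188 of the genes tested, and promoters from RefSeq (GRCh38.p14). A comparison of promoter motifs is void, because only 332 of 429 protein-coding genes that rose had a promoter sequence. Alternatives were the scaling, pseudocount, filter on low values, replicate block, libraries used and moderation.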

Additional observations from a re-analysis of the deposited data

How the results depend on the processing

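Of the 105 genes named by rule, 103 kept their side of the threshold with trimmed mean scaling and 86 with TPM as deposited. With no filter on low values 81 did. With no replicate block 42 did, and with the 4 libraries alone 14. No named gene that was called in the main fit or in an alternative changed direction between them. A change of sign in a gene called in neither was not counted. The counts of 478 genes higher and 210 lower at 12 h against 0 h became 121 and 42 with no replicate block, 43 and 22 with no replicate block on TPM as deposited, and 148 and 45 with no replicate block and trimmed mean scaling. They were 0 and 0 in a fit to the 4 libraries alone, which leaves 1 residual degree of freedom. TPM as deposited gave 116 genes lower, and protein-coding genes only, an alternative chosen after seeing the data, 325. Of the 478 genes that rose 315 stayed called on TPM as deposited, and of the 210 that fell 110 did. Leaving out 1 library gave 71 to 199 higher and 22 to 41 lower. Of the pathway list genes, 86 were higher and 34 lower; with no replicate block these were 20 and 12 (7 and 9 on TPM as deposited, 25 and 13 with trimmed mean scaling), 0 and 0 with the 4 libraries alone, and 24 to 46 and 8 to 11 without 1 library. For 12 h against 6 h, no filter on low values called 10 higher and 3 lower, no replicate block 1 higher (1 also with trimmed mean scaling), and leaving out 1 library 0 to 4 higher and 0 to 1 lower. For 24 h against 12 h (1 and 1), no filter gave 7 and 13, and no replicate block 2 lower (2 with trimmed mean scaling, 0 and 0 on TPM as deposited). A pseudocount of 5 gave 2 lower. There were 0 higher with TPM as deposited, and 0 and 0 with a pseudocount of 0.1, a minimum of 5 TPM, the 4 libraries alone, robust moderation, protein-coding genes only and without the 36 h and 48 h libraries of replicate 2; leaving out 1 library gave 0 to 1 in each direction. The cause of these moves was not tested, and the smaller fits also had fewer samples. Depth is unknown, so no counting error could be given.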

Other observations

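Besides the type IV collagen, EGF ligand and gonadotropin genes, the tested protein-coding RefSeq genes were searched for other neighbours called in the same direction. Many further runs, such as PIK3CD with CLSTN1 and UACA with LARP6, are not described. The run of RAET1E and RAET1G given below also holds LRP11. How many runs the number of called genes alone would give was not tested. The shared direction was thus a condition of the search, and neighbours called in opposite directions were not counted. On chromosome 19, CYP4F3, CYP4F12 and CYP4F11, cytochrome P450 genes of fatty acid hydroxylation, all fell. CYP4F11 measured 3.90 and 3.47 TPM at 12 h, against 14.4 and 15.7 TPM at 0 h, and CYP4F12 0.383 and 3.05 TPM at 12 h, against 5.69 and 13.52 TPM at 0 h; without the block the adjusted p was 0.116 for CYP4F12 and 0.174 for CYP4F3. On chromosome 6, RAET1E and RAET1G, ligands of the NKG2D receptor of natural killer cells, rose. RAET1G measured 40.6 and 17.502 TPM at 12 h, against 8.22 and 2.20 TPM at 0 h (log2 fold change 2.35, adjusted p = 0.00265; 0.0815 without the block), and RAET1E 11.6 and 6.36 TPM at 12 h, against 2.08 and 2.38 TPM at 0 h (log2 fold change 1.58, adjusted p = 0.0286; 0.127 without the block). These genes have related sequences, and their reads could be shared. All were chosen after their values were seen.

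The transcript AC019205.2 was listed at 4.32 and 2.58 TPM at 12 h and at 0 in both libraries of 0 h, of 6 h and of 24 h. AL121753.1 was listed at 2.44 and 2.11 TPM at 12 h and at 0 in the same 6 libraries. Neither identifier matched the annotation used. For each, the 12 h libraries alone were enough to pass the filter on low values, so these values are a description.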
